A study of Mus musculus with 12 samples.

Results

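The quantity described here was the wound-dependent change of the cortical-to-total ratio. For each gene it was the log2 ratio of the cortical to the total fraction in scratch-wounded keratinocytes minus the same ratio in unwounded keratinocytes, that is, the interaction of wounding and fraction. A negative value is called a loss of cortical enrichment and a positive value a gain, and both are given with their sign. Every gene with enough counts entered the comparison, which gave 13571 genes of the 54532 in the deposited count table. Keratinocytes of the mouse, which make up most of the epidermis, carried the genotype WT DP-BirA(1-584) in all 4 groups. They expressed, under doxycycline at 2 µg/mL, an amino-terminal piece of desmoplakin joined to the biotin ligase BirA, and calcium was added together with it to start differentiation. Confluent cells were scratch wounded or left intact, and biotin was then given for 16 h. The translating fraction of a sucrose gradient was passed over neutravidin, a resin-bound protein that binds biotin, to give RNA retained on the resin (cortical) and RNA of the depleted remainder (total). Each of the 4 groups (total and cortical RNA of unwounded cells, total and cortical RNA of wounded cells) had 3 libraries. Unwounded cells carried the same fusion protein, doxycycline, calcium and biotin as wounded cells, and no group without the fusion protein, the biotin or the resin step was analysed here. The total fraction was what the resin left behind, not unfractionated RNA.

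Desmoplakin links desmosomes, the adhesions that hold epidermal cells together, to keratin filaments, and a biotin ligase placed on it acts near cell borders. Translating material that carries biotin is held by neutravidin together with its mRNAs, so the cortical-to-total ratio of an mRNA compares what the resin held with what it left; the labels do not name the protein that received the biotin. Keratinocytes at a wound edge loosen their adhesions, switch on stress keratins and migrate, and the question was for which mRNAs the ratio differed once the cells had been wounded.

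The libraries held 8980013 to 23457548 counts. All 10 keratinocyte markers were detected and summed to 10920 to 21110 CPM (counts scaled to a common library total, with TMM factors). Summed markers of fibroblasts (0.836 to 6.47 CPM), melanocytes (0.297 to 2.27 CPM) and endothelial cells (0.274 to 1.87 CPM) were low. Those of immune cells summed to 17.8 to 58.7 CPM, were highest in the wounded total libraries, and had Adgre1, Csf1r, Itgam and Lyz2 at 0 in every library; the part of such cells in the results was not tested. Wounded total replicate 1 stood apart: 329 of 1005 genes expected there at 10 to 20 counts (32.7%) had none, and it scored 112 on a first principal component on which the other libraries lay between -19.7 and 4.35. Counts of genes whose ratio changed are therefore given with all 12 libraries and with the 11 left without this one, and so, singly or as a range, are the values of most genes described. The labels number the libraries as biological replicates without saying whether they came from separate cultures prepared on different days, so p-values measure the spread between these libraries. In a bulk sample a smaller share of cells with an mRNA and less of that mRNA per cell cannot be told apart.

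With all 12 libraries, 17 of 13571 genes (0.125%) had a ratio that changed with wounding by edgeR's quasi-likelihood test at an adjusted p under 0.05 (Benjamini-Hochberg over all genes tested). Of these, 14 lost cortical enrichment (0.103%) and 3 gained it (0.0221%). At an unadjusted p under 0.05 there were 1228 genes, 539 losses and 689 gains, and the median change over all genes was 0.02 on the log2 scale. Without wounded total replicate 1, 413 of 14073 genes were called (2.93%), 264 losses (1.88%) and 149 gains (1.06%). All 17 genes of the first comparison were among them in the same direction. The other 396 genes were called only without that library, although each of the 413 had the same sign in both comparisons and 248 had an unadjusted p under 0.05 with all 12. The 17 genes are described first, by the role of their products.

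**Figure D1:**
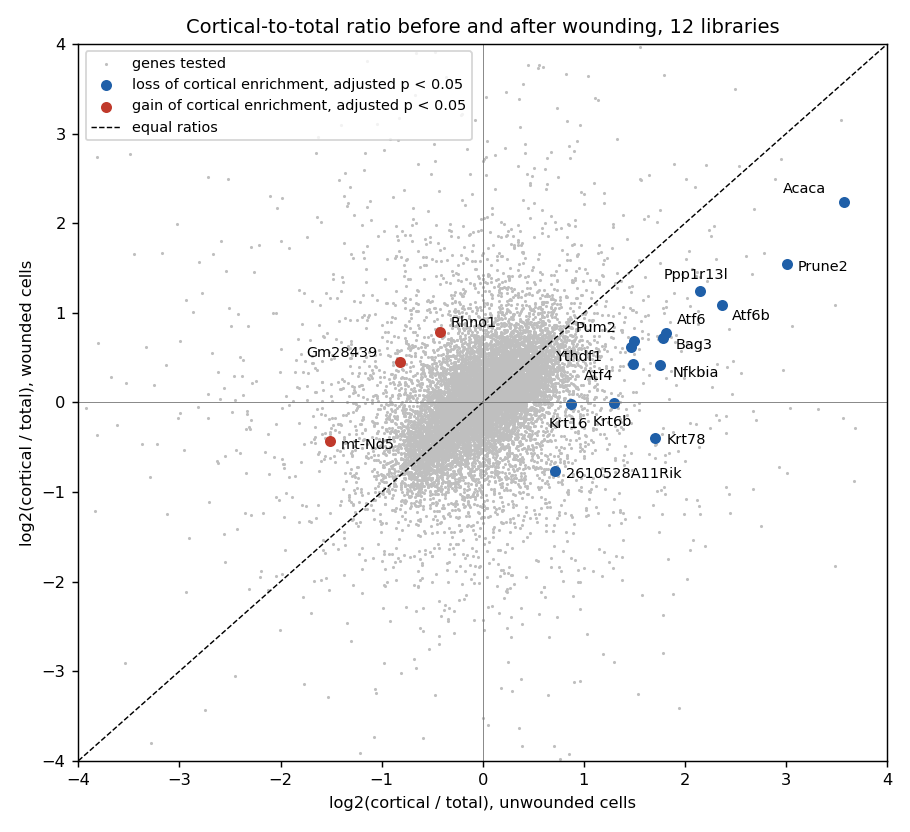
Log2 cortical-to-total ratio of each tested gene in unwounded cells (horizontal axis) and wounded cells (vertical axis), fitted to all 12 libraries; 99 genes lie outside the plotted range of either axis. The 14 called losses (blue) all lie below the dashed line of equal ratios and right of 0, and the 3 called gains (red) lie above it and left of 0.

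The largest cortical enrichment among the called genes belonged to Acaca (ENSMUSG00000020532, mm10 chr11:84129672-84401651), which encodes acetyl-CoA carboxylase 1, the enzyme that commits acetyl-CoA to fatty acid synthesis and itself carries biotin as a cofactor. In unwounded cells, replicates 1 to 3 of Acaca were at 39.4, 36.9 and 41.8 CPM in the total and 477, 468 and 462 in the cortical fraction, and in wounded cells at 44.3, 40.4 and 53.3 and 236, 203 and 209.5. The unwounded cortical libraries stood above all others, the wounded cortical libraries lay between them and the totals, and the total libraries of both conditions overlapped. The log2 ratio went from 3.57 in unwounded cells to 2.23 in wounded cells, a loss of -1.34 (SE 0.16, adjusted p = 0.00126 by edgeR). Without wounded total replicate 1 the loss was -1.37 (SE 0.14, adjusted p = 8.87e-06). Acaca was the single called gene among the 8 tested members of the list of biotin carboxylases and biotin metabolism and among the 13 tested members of the fatty acid synthesis list, whose medians over members were 0.02 and -0.24.

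Prune2 (ENSMUSG00000039126, chr19:16956118-17223932), which encodes a large BCH-domain protein related to BNIP2, showed the same arrangement of groups. The 3 unwounded total libraries had 24.1, 26.2 and 30.6 CPM of Prune2 and the unwounded cortical ones 215, 204 and 230.5, against 37.3, 25.6 and 28.4 in wounded total and 89.6, 85.98 and 90.5 in wounded cortical libraries. Here too the cortical libraries of the 2 conditions were far apart and the total libraries overlapped, with wounded total replicate 1 the highest of them. The loss was -1.46 (SE 0.18, adjusted p = 0.00157 by edgeR) with all 12 libraries and -1.29 (SE 0.15, adjusted p = 2.08e-05) with 11.

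Transcription factors of the unfolded protein response, the program that cells start when proteins misfold in the endoplasmic reticulum (ER), formed the next group. Of the 23 tested members of that list, 3 were called as losses in both comparisons and 0 as gains: Atf6b, Atf6 and Atf4. Over all genes tested the called losses were 0.103% with 12 libraries and 1.88% with 11. Atf6b (ENSMUSG00000015461, chr17:34647146-34655074) and Atf6 (ENSMUSG00000026663, chr1:170704674-170867771) encode membrane-bound factors of the ER that are cut free under stress, and Atf4 (ENSMUSG00000042406, chr15:80255184-80257541) encodes a factor whose translation rises when the initiation factor eIF2 is phosphorylated. Replicates 1 to 3 gave 63.5, 66.2 and 70.5 CPM for Atf6b in unwounded total, 345, 333 and 349 in unwounded cortical, 70.4, 57.3 and 69.8 in wounded total and 135, 139.6 and 143 in wounded cortical libraries. The cortical libraries fell without overlap and the total libraries of both conditions lay in 1 range, so the ratio went from 2.36 to 1.08, a loss of -1.28 (SE 0.14, adjusted p = 0.00123 by edgeR; -1.23 without wounded total replicate 1). For Atf6 the totals of intact cells read 20.6, 17.4 and 17.2 CPM and their cortical libraries 70.1, 63.9 and 59.9, whereas wounded cells read 24.1, 23.2 and 24.5 in total and 41.6, 41.5 and 39.9 in cortical libraries. For Atf6 the total libraries were higher after wounding and the cortical ones lower, neither with overlap, for a loss of -1.04 (SE 0.17, adjusted p = 0.0155 by edgeR; -1.03 with 11 libraries). Levels of Atf4 were 478, 522 and 475 CPM in unwounded total and 1355, 1393 and 1382 in unwounded cortical libraries, then 376, 464 and 515 in wounded total and 642, 607 and 582 in wounded cortical ones. In Atf4 the cortical libraries were again separate. Wounded total replicates 1 and 2 lay below the unwounded totals, replicate 1 lowest, and replicate 3 lay within their range. The Atf4 loss was -1.05 (SE 0.16, adjusted p = 0.012 by edgeR) with all 12 libraries and -1.17 with 11. The median over the 23 members was -0.13 with all 12 libraries and -0.03 with 11, and 20 members were not called in either comparison.

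The NF-kappaB list, which held the subunits of this inflammatory transcription factor and their inhibitors, had 2 called members in each comparison, both losses and both inhibitors. Called losses were 0.103% of all genes tested with 12 libraries and 1.88% with 11. Nfkbia (ENSMUSG00000021025, chr12:55489410-55492647) encodes IκBα, which holds NF-kappaB in the cytoplasm, and Ppp1r13l (ENSMUSG00000040734, chr7:19359749-19378533) encodes iASPP, which binds the RelA subunit and p53. Before wounding Nfkbia was at 33.4, 32.4 and 33.7 CPM in the total libraries and 118, 106 and 112 in the cortical libraries, and after it at 54.6, 40.9 and 42.4 and 63.4, 61.1 and 60.4. Every wounded total library was above every unwounded one, every wounded cortical library was below every unwounded one, and the ratio went from 1.76 to 0.42. The loss for Nfkbia was -1.33 (SE 0.16, adjusted p = 0.00126 by edgeR) and -1.19 (SE 0.14) without wounded total replicate 1, which had the highest total value. Ppp1r13l CPM in replicates 1 to 3 was 193, 174 and 182 in unwounded total, 801, 806 and 829 in unwounded cortical, 207, 176 and 215 in wounded total and 463, 481 and 469 in wounded cortical libraries. For Ppp1r13l the totals overlapped and the cortical libraries did not, and the loss was -0.91 (SE 0.14, adjusted p = 0.0132 by edgeR; -0.88 with 11 libraries). Of the other members, 12 were tested with all 12 libraries and none was called, and the median of all 14 was 0.15.

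Bag3, Pum2 and Ythdf1 act on proteins or mRNAs in the cytoplasm. Bag3 (ENSMUSG00000030847, chr7:128523616-128546981) encodes a co-chaperone of Hsp70 that directs misfolded proteins to autophagy. In unwounded cells, replicates 1 to 3 of Bag3 were at 66.2, 66.7 and 80.5 CPM in the total and 241, 231 and 264 in the cortical fraction, and in wounded cells at 87.5, 82.04 and 101 and 146, 156 and 143. The wounded totals were all above the unwounded ones and the wounded cortical libraries all below, a loss of -1.07 (SE 0.16, adjusted p = 0.00953 by edgeR; -1.09 with 11 libraries). Pum2 (ENSMUSG00000020594, chr12:8674134-8752581) encodes a Pumilio protein that binds 3′ ends of mRNAs and represses them. The 3 unwounded total libraries had 91.2, 91.9 and 84.4 CPM of Pum2 and the unwounded cortical ones 243, 258 and 252, against 69.6, 82.3 and 88.1 in wounded total and 132, 123 and 130.2 in wounded cortical libraries. Its cortical libraries separated by condition, its totals overlapped, and the loss was -0.81 (SE 0.14, adjusted p = 0.0325 by edgeR; -0.90 with 11 libraries). Ythdf1 (ENSMUSG00000038848, chr2:180904377-180920949) encodes a reader of N6-methyladenosine in mRNA. Replicates 1 to 3 gave 43.3, 39.4 and 43.2 CPM for Ythdf1 in unwounded total, 101, 125 and 124 in unwounded cortical, 40.05, 37.4 and 39.5 in wounded total and 59.8, 60.4 and 59.5 in wounded cortical libraries. The same separation of the cortical libraries gave a loss of -0.85 (SE 0.15, adjusted p = 0.0325 by edgeR; -0.83 with 11 libraries).

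Of the 14 losses, these 10 were the ones whose cortical fraction was called lower after wounding, as it was in 0.884% of all genes tested. The remaining 4 losses, the keratins Krt6b, Krt16 and Krt78 and the gene 2610528A11Rik, had a cortical fraction called higher, as in 1.6% of all genes. Keratins are the intermediate filaments of epithelia, and Krt6b and Krt16 belong to the set that the epidermis induces on injury. Krt6b (ENSMUSG00000023041, chr15:101676023-101680287) shares long stretches with its paralog Krt6a, so reads may have been divided between them. For Krt6b the totals of intact cells read 12.8, 9.48 and 10.3 CPM and their cortical libraries 28.6, 21.99 and 29.9, whereas wounded cells read 58.7, 83.4 and 85.6 in total and 68.6, 79.8 and 79.02 in cortical libraries. All wounded libraries were above all unwounded ones, and the fractions, separate before wounding, overlapped after it: the ratio went from 1.30 to 0.00, a loss of -1.30 (SE 0.23, adjusted p = 0.0325 by edgeR; -1.46 with 11 libraries). Krt16 (ENSMUSG00000053797, chr11:100246091-100248902) is also close in sequence to other type I keratins. Levels of Krt16 were 177, 167 and 162 CPM in unwounded total and 318, 311 and 296 in unwounded cortical libraries, then 475, 610.3 and 648 in wounded total and 564, 536 and 606 in wounded cortical ones. The fractions did not overlap before wounding and overlapped after it, with a loss of -0.89 (SE 0.16, adjusted p = 0.0396 by edgeR; -1.01 with 11 libraries). Krt78 (ENSMUSG00000050463, chr15:101946001-101954287) is a type II keratin. Before wounding Krt78 was at 2.11, 1.35 and 2.00 CPM in the total libraries and 4.96, 5.94 and 7.22 in the cortical libraries, and after it at 22.3, 15.6 and 12.4 and 11.6, 12.3 and 14.2. It had the largest loss of the 17 genes and the lowest CPM, -2.11 (SE 0.38, adjusted p = 0.0325 by edgeR), and -1.84 (SE 0.36) without wounded total replicate 1, the highest of its totals.

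The gene 2610528A11Rik (ENSMUSG00000096001, chr14:37102140-37114022) encodes the small secreted ligand of the receptor GPR15. 2610528A11Rik CPM in replicates 1 to 3 was 7.63, 8.64 and 10.2 in unwounded total, 13.99, 18.4 and 10.9 in unwounded cortical, 38.99, 48.2 and 46.4 in wounded total and 25.7, 27.2 and 25.9 in wounded cortical libraries. No group overlapped another: cortical was above total before wounding and below it afterwards, with a ratio of 0.71 and then -0.76. The loss was -1.48 (SE 0.25, adjusted p = 0.0284 by edgeR; -1.56 with 11 libraries). It was the single one of the 14 losses that was called depleted from the cortical fraction after wounding.

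**Figure D2:**
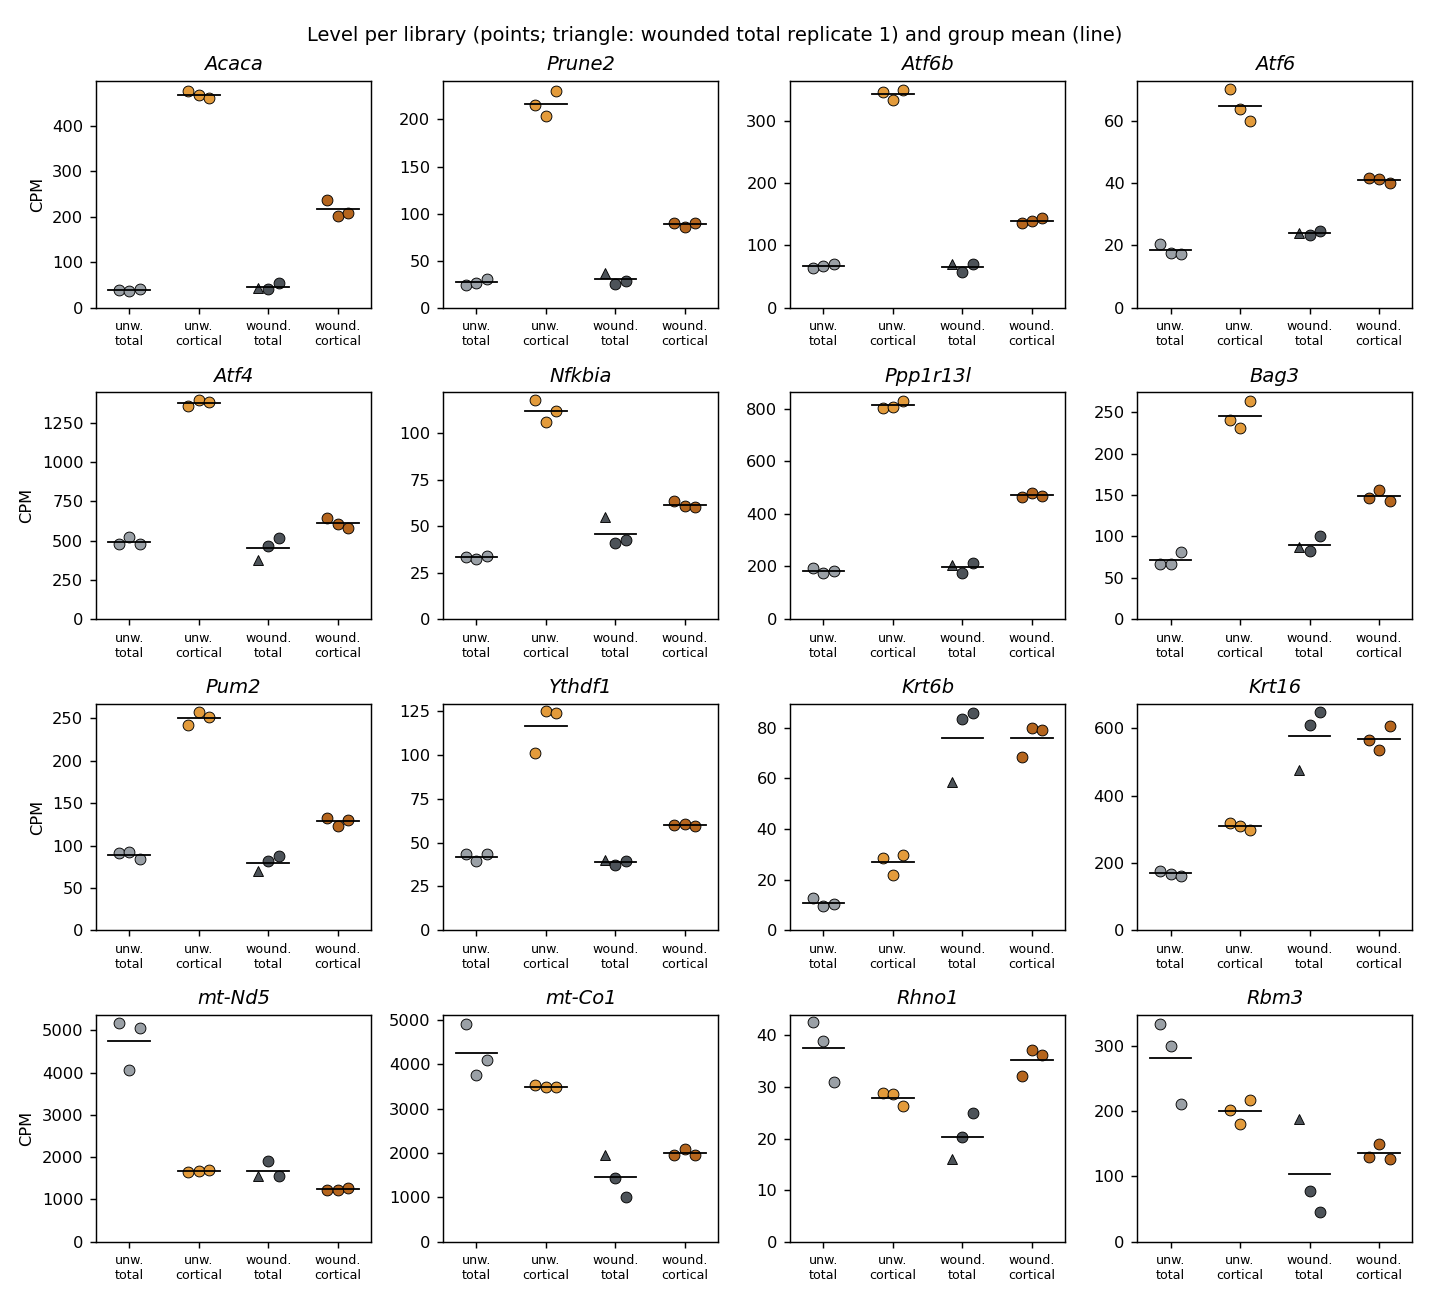
CPM in each library (points) with the group mean (line) for 14 of the 17 called genes and for mt-Co1 and Rbm3, which were called only without wounded total replicate 1 (triangle); every axis starts at 0. In the first 10 panels the unwounded cortical points stand alone at the top, in Krt6b and Krt16 both wounded groups share the top, and in mt-Nd5 the unwounded total points do.

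All 14 losses were called enriched in the cortical fraction of unwounded cells, where 6.62% of all genes tested were, and 10 were still called enriched after wounding (7.62% of all genes). Their median log2 ratio was 1.73 before and 0.65 after wounding. The total fraction was called higher after wounding in 7 of the 14 and lower in 0, against 8.39% and 7.2% of all genes. Because the unwounded ratio and the changes of each fraction use the same libraries as the interaction, these counts describe the 14 genes and are no separate support for them.

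The 3 gains were mt-Nd5, Gm28439 and Rhno1. Mitochondrial DNA encodes 13 respiratory chain proteins that mitochondria translate on their own ribosomes, and mt-Nd5 (ENSMUSG00000064367, chrMT:11742-13565) is a subunit of complex I. In unwounded cells, replicates 1 to 3 of mt-Nd5 were at 5164, 4054 and 5058 CPM in the total and 1641, 1684 and 1689 in the cortical fraction, and in wounded cells at 1552, 1907 and 1556 and 1228, 1221 and 1261. The unwounded total libraries were far above the other 3 groups, and the wounded cortical libraries were the lowest. The ratio rose from -1.51 to -0.43, a gain of 1.07 (SE 0.16, adjusted p = 0.0117 by edgeR; 1.02 with 11 libraries), so mt-Nd5 stayed called depleted from the cortex in both conditions (7.59% and 8.03% of all genes were). mt-Nd6 overlaps mt-Nd5 on the opposite strand. The library preparation kept no strand, so only reads that lie within the bases shared by the pair cannot be told apart. Of the 13 mitochondrially encoded mRNAs tested, 12 had a positive value, with a median of 0.66. Only mt-Nd5 was called with all 12 libraries, and mt-Cytb, mt-Nd6, mt-Co1 and mt-Nd3 joined it without wounded total replicate 1 (5 gains, 0 losses, median 0.52). Over all genes tested the called gains were 0.0221% with 12 libraries and 1.06% with 11. The 3 unwounded total libraries had 4909, 3754 and 4088 CPM of mt-Co1 and the unwounded cortical ones 3524, 3476 and 3486, against 1944, 1445 and 1017 in wounded total and 1951, 2094 and 1946 in wounded cortical libraries. For mt-Co1, a subunit of complex IV, the total libraries were above the cortical ones before wounding and below them after it, replicate 1 only narrowly, and the gain was 0.73 (adjusted p = 0.357) with 12 libraries and 0.98 (adjusted p = 0.00106, edgeR) with 11. Relative to the unwounded totals, the median log2 level of the 13 was -1.75, -0.85 and -1.25 in wounded total replicates 1 to 3 and -1.76 to -1.70 in the wounded cortical libraries.

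Gm28439 (ENSMUSG00000100131, chr1:24611535-24612410, minus strand) is annotated as a pseudogene on chromosome 1, and its whole annotated transcript of 876 bases is identical to the start of mt-Nd4. The first 90 bases of both transcripts are shown, read 5′ to 3′ from the GENCODE transcripts on GRCm38, because a read from this stretch cannot be assigned to either gene by its sequence; no base is in capitals since none differs.
Gm28439 (chr1:24612321-24612410, minus strand): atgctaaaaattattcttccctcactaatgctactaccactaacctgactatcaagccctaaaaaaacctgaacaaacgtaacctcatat
mt-Nd4 (chrMT:10167-10256, plus strand): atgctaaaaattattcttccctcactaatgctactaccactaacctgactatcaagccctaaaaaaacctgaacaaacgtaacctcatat
Replicates 1 to 3 gave 64.1, 44.8 and 61.97 CPM for Gm28439 in unwounded total, 30.6, 34.1 and 32.3 in unwounded cortical, 12.4, 11.2 and 9.01 in wounded total and 13.5, 15.2 and 15.9 in wounded cortical libraries. The wounded libraries were all below the unwounded ones, cortical was below total before wounding and above it after, and the gain was 1.27 (SE 0.23, adjusted p = 0.0325 by edgeR; 1.37 with 11 libraries). mt-Nd4 itself was not called, at 0.46 (SE 0.23, adjusted p = 0.582) with 12 libraries, so how reads were divided between the pair bears on the value for Gm28439 and was not tested.

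Rhno1 (ENSMUSG00000048668, chr6:128357000-128362911) encodes a partner of the RAD9 clamp in the DNA damage checkpoint, and the low-count gene Gm26770 overlaps it on the other strand. For Rhno1 the totals of intact cells read 42.6, 38.95 and 30.9 CPM and their cortical libraries 28.7, 28.6 and 26.3, whereas wounded cells read 16.1, 20.2 and 24.9 in total and 32.1, 37.2 and 36.1 in cortical libraries. The order of the fractions turned round: total was above cortical in every unwounded library and below it in every wounded one. The ratio rose from -0.43 to 0.78, a gain of 1.21 (SE 0.23, adjusted p = 0.0498 by edgeR) with 12 libraries and 1.07 (SE 0.21, adjusted p = 0.00624) with 11. The total fraction was called lower after wounding in all 3 gains and the cortical fraction in 1 of them, Gm28439.

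Dsp (ENSMUSG00000054889, chr13:38151294-38198577), the gene of desmoplakin, from which the fusion protein was made, was given for reference, and its counts may include the transgene. Levels of Dsp were 228, 189 and 228 CPM in unwounded total and 310.4, 283 and 332 in unwounded cortical libraries, then 359, 358 and 379 in wounded total and 488, 468 and 481 in wounded cortical ones. All wounded values were above their unwounded counterparts and cortical was above total in both conditions, so the ratio was 0.52 and 0.39. The interaction was -0.13 (SE 0.15, adjusted p = 0.864 by edgeR) and -0.14 (SE 0.13) with 11 libraries, and no change was detected.

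In most of the 413 genes called without wounded total replicate 1, the total fraction was itself called changed on wounding. Among the 264 losses the total fraction was called higher in 244 (13.4% of all genes tested were) and the cortical fraction lower in 23 (3.6%) and higher in 65. Among the 149 gains the total was called lower in 139 (11.5%) and the cortical fraction higher in 10 (5.47%) and lower in 24. The absolute log2 change of the total exceeded that of the cortical fraction in 241 losses and 139 gains. Of the losses, 75 had been called enriched in unwounded cells (10.1%), 77 called depleted there (12.3%), and 201 were called depleted in wounded cells (12.6%). Of the gains, 68 had been called depleted in unwounded cells and 92 were called enriched in wounded cells (12.1%). The interaction is made of these same ratios and fraction changes, so the counts describe the 413 genes and are no separate support for them. The CPM of the excluded library lay on the side of the unwounded total mean, seen from the mean of wounded total replicates 2 and 3, in 369 of the 413 genes, and between those 2 libraries in 18. The median absolute log2 difference between replicates 2 and 3 was 0.15 over these genes and that of replicate 1 from their mean 0.66, against 0.19 and 0.45 over all genes tested. The 413 genes were chosen with replicate 1 left out. That choice favours genes in which replicates 2 and 3 agree and lie away from the unwounded totals. The place of replicate 1 in these genes is therefore partly set by the choice and was not tested apart from it. The gains and losses with 11 libraries thus rest on wounded total replicates 2 and 3, and with replicate 2 or replicate 3 alone as the wounded total 64 and 327 genes were called. The split into gains and losses also depended on the scaling. It was 123 gains and 386 losses with median-of-ratios factors and 407 gains and 152 losses with library size alone, which moved the median of all genes from 0.04 to 0.18.

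**Figure D3:**
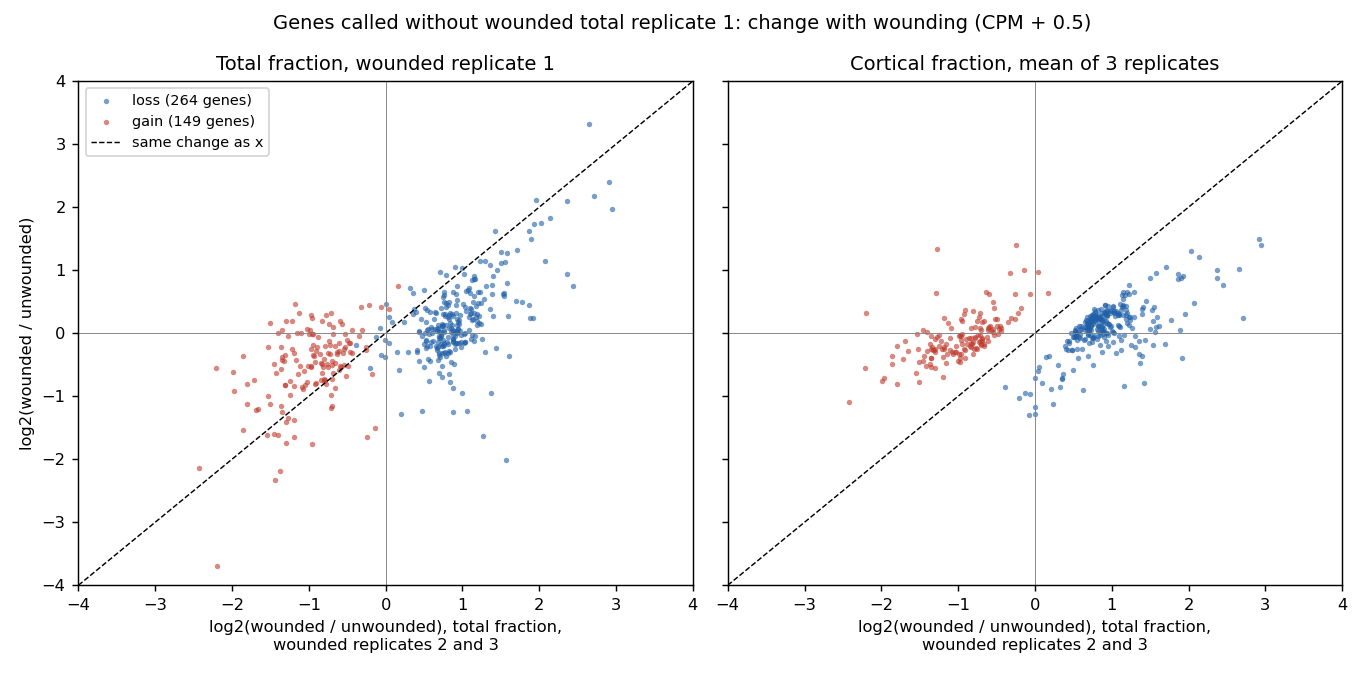
Log2 change with wounding (CPM plus 0.5) of the 413 genes called without wounded total replicate 1, with the total fraction of wounded replicates 2 and 3 on both horizontal axes, and on the vertical axes the total fraction of wounded replicate 1 (left) and the mean cortical fraction (right). Losses (blue) lie mostly right of 0 and gains (red) left of 0, while their cortical change clusters near 0. In 369 of the 413 genes, wounded total replicate 1 lay on the unwounded total side of the mean CPM of replicates 2 and 3.

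The 23 losses with a lower cortical fraction after wounding held the 10 genes described first (Acaca, Prune2, Atf6b, Atf6, Atf4, Nfkbia, Ppp1r13l, Bag3, Pum2 and Ythdf1). Of the 23, 22 were called enriched in unwounded cells, as were 10.1% of all genes tested. The choice of the 23 and this count use the same unwounded cortical libraries, so the count is no separate support. Also among the 23 were Tmf1, which encodes a Golgi tethering protein, Cep170b, Ctdsp1, Prr12, Ppp1r16a, Ribc1 and Lars2. They are listed because of the direction of their cortical fraction, which was noticed after the values were seen. Cep170b, whose product is related to a centrosomal microtubule protein, went from 2.12 to 1.41 in log2 ratio (-0.71, SE 0.14, adjusted p = 0.0073 by edgeR with 11 libraries; -0.67 and adjusted p = 0.202 with 12). Ribc1 encodes a protein of ciliary microtubules. Before wounding Ribc1 was at 4.65, 4.29 and 5.36 CPM in the total libraries and 14.5, 14.1 and 11.5 in the cortical libraries, and after it at 4.33, 7.36 and 7.79 and 4.97, 7.92 and 8.28. Its unwounded cortical libraries were above all others, and its interaction was -1.60 (adjusted p = 0.0141 by edgeR) with 11 libraries and -1.37 (adjusted p = 0.293) with 12.

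By a rule of size, the largest protein-coding losses with 11 libraries, beside Krt78, Krt6b and 2610528A11Rik, were Defb14, Lars2, Gm3776, Fam25c, Ndufa4l2, Ribc1, 1810024B03Rik, Pdk2 and Dapl1. Defb14 encodes a β-defensin, an antimicrobial peptide of the epidermis. Defb14 CPM in replicates 1 to 3 was 3.03, 4.57 and 4.71 in unwounded total, 3.56, 4.93 and 4.78 in unwounded cortical, 5.93, 14.8 and 13.6 in wounded total and 3.18, 2.96 and 5.93 in wounded cortical libraries. Wounded total replicates 2 and 3 were above all other libraries, and the loss was -1.92 (SE 0.44, adjusted p = 0.0188 by edgeR with 11 libraries; -1.61 and 0.357 with 12). Ndufa4l2 encodes a mitochondrial protein induced by hypoxia, and it overlaps Shmt2 on the other strand. In unwounded cells, replicates 1 to 3 of Ndufa4l2 were at 7.72, 6.38 and 5.48 CPM in the total and 13.2, 13.1 and 10.9 in the cortical fraction, and in wounded cells at 26.9, 52.5 and 53.8 and 32.4, 33.1 and 34.2. Both wounded groups were above both unwounded ones, and the order of the fractions turned from cortical above total to total above cortical in replicates 2 and 3 only (-1.60, SE 0.22, adjusted p = 0.00016 by edgeR with 11 libraries). Pdk2, a kinase that switches off pyruvate dehydrogenase, changed by -1.51 (SE 0.31, adjusted p = 0.00923), and Dapl1, an epithelial differentiation gene, by -1.39 (SE 0.37, adjusted p = 0.0415). For Fam25c the total was 69.6, 206 and 247 CPM in wounded replicates 1 to 3 against 30.7, 53.8 and 41.8 in unwounded ones, with the cortical values at 43.2, 41.6 and 40.5 before and 76.5, 66.4 and 71.5 after wounding, and the loss was -1.66 (SE 0.20). With all 12 libraries these 9 genes had interactions of -1.61 to -1.04 and adjusted p from 0.175 to 0.552 by edgeR.

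Lars2 encodes the leucyl-tRNA synthetase of mitochondria. The 3 unwounded total libraries had 371, 517 and 325 CPM of Lars2 and the unwounded cortical ones 548, 511 and 586, against 205, 876 and 1195 in wounded total and 427, 344 and 419.5 in wounded cortical libraries. Its wounded totals ranged from the lowest to the highest value of all 12 libraries, with replicate 1 lowest, and the loss was -1.82 (SE 0.20, adjusted p = 9.84e-06 by edgeR) with 11 libraries and -1.37 (SE 0.53, adjusted p = 0.449) with 12. The ribosomal RNA gene CT010467.1 had wounded totals of 452, 973 and 1322 CPM and a loss of -0.97 with 11 libraries (-0.64 with 12, adjusted p = 0.62 by edgeR), and Gm23935, annotated as a microRNA gene, had 619, 2244 and 3301 CPM and a loss of -1.18 with 11 (-0.75 with 12, adjusted p = 0.716), both named after their values were seen. In all 3 genes replicate 1 was the lowest and replicate 3 the highest of the wounded totals; whether ribosomal RNA left after poly-T selection has a part in the Lars2 value was not tested.

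Gm3776 is a near copy of Gsta1, a glutathione S-transferase: their coding sequences of 669 bases differ at 2 positions. The first 90 coding bases are printed, read from the GENCODE transcripts on GRCm38, to show how little sequence separates them, with the differing base in capitals.
Gm3776: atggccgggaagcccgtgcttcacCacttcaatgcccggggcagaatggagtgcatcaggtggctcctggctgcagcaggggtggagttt
Gsta1: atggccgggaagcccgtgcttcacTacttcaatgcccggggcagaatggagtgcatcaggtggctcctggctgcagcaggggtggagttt
Replicates 1 to 3 gave 2.90, 6.04 and 8.60 CPM for Gm3776 in unwounded total, 5.43, 6.77 and 7.12 in unwounded cortical, 6.47, 22.1 and 20.3 in wounded total and 7.95, 4.84 and 7.64 in wounded cortical libraries. Wounded total replicates 2 and 3 were above the rest, for a loss of -1.77 (SE 0.43, adjusted p = 0.0235 by edgeR with 11 libraries; -1.39 and 0.49 with 12), while Gsta1 had -0.47 (SE 0.38, adjusted p = 0.605) with 11 libraries and was called in neither comparison. In the same way Gm12184, a gain of 1.70 with 11 libraries (adjusted p = 0.0181; 0.27 with 12), has a coding sequence of 342 bases identical to that of Cdk2ap1, which was at 0.58 (adjusted p = 0.102). The values of Gm3776 and Gm12184 are therefore uncertain.

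Among the largest protein-coding gains with 11 libraries were Gm12184, Cbx3, Rbm3, Plagl2, Smim3, Wsb1, Ranbp9, Nup153, Odf2l and Adpgk, from 1.70 to 1.33. Rbm3 encodes a cold-inducible RNA-binding protein. For Rbm3 the totals of intact cells read 333, 299.8 and 210.5 CPM and their cortical libraries 202, 179.8 and 217, whereas wounded cells read 189, 76.98 and 45.6 in total and 129.5, 150.3 and 127 in cortical libraries. Wounded total replicates 2 and 3 were the lowest of all libraries and replicate 1 was near the unwounded cortical values. The gain was 1.64 (SE 0.23, adjusted p = 0.000202 by edgeR) with 11 libraries and 0.88 (SE 0.46, adjusted p = 0.609) with 12. Wsb1 encodes a substrate receptor of a ubiquitin ligase. Levels of Wsb1 were 21.9, 20.2 and 24.7 CPM in unwounded total and 20.6, 23.4 and 19.5 in unwounded cortical libraries, then 7.30, 5.78 and 5.76 in wounded total and 11.3, 18.5 and 16.1 in wounded cortical ones. All 3 wounded totals of Wsb1 were below every other library, and its gain was 1.47 (SE 0.28, adjusted p = 0.00491) with 11 libraries and 1.35 (adjusted p = 0.1) with 12. Cbx3, the heterochromatin protein HP1γ, and Nup153, a nucleoporin, had gains of 1.69 (SE 0.37, adjusted p = 0.0142) and 1.41 (SE 0.35, adjusted p = 0.0271). Ranbp9 and Adpgk overlap Nol7 and Bbs4 on the other strand, so their values are uncertain. With all 12 libraries these 10 gains had values of 0.67 to 1.5 and adjusted p from 0.10 to 0.676 by edgeR. Ranbp9, a scaffold protein, was 1 of the 10 gains with a higher cortical fraction; the others with annotated proteins were Akap9, Lama3, Tbrg1 and Wasl, and the remaining 5 were pseudogenes. Akap9 encodes a scaffold of the centrosome and Golgi. Before wounding Akap9 was at 24.6, 19.1 and 20.1 CPM in the total libraries and 37.2, 30.7 and 26.3 in the cortical libraries, and after it at 27.6, 20.7 and 23.1 and 60.8, 57.5 and 65.1. Its wounded cortical libraries were above all others, for a gain of 0.91 (SE 0.21, adjusted p = 0.0168 by edgeR with 11 libraries; 0.80 and 0.285 with 12).

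In 12 losses the sign of a called ratio turned from enriched to depleted, among them Ier3, Ndufa4l2, Pdk2, Sec62 and 2610528A11Rik. In 14 gains it turned from depleted to enriched, among them Rhno1, mt-Co1, Rbm3, Srsf6, Srsf5 and Hnrnpl. Sec62 encodes a subunit of the translocon that passes proteins into the ER. Sec62 CPM in replicates 1 to 3 was 31.7, 38.8 and 44.01 in unwounded total, 51.3, 59.6 and 72.00 in unwounded cortical, 57.1, 106 and 116 in wounded total and 67.5, 64.6 and 75.5 in wounded cortical libraries. Its cortical libraries were above the totals before wounding, and below wounded total replicates 2 and 3 after it, a loss of -1.35 (SE 0.18, adjusted p = 0.000168 by edgeR with 11 libraries; -1.10 and 0.275 with 12).

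Among the gene lists, 15 keratins were tested. Krt78, Krt6b and Krt16 were the called losses with 12 libraries, Krt14 and Krt17, keratins of the basal and the activated epidermis, joined them with 11, and 0 gained. Over all genes tested the called losses were 0.103% with 12 libraries and 1.88% with 11. The median over the keratin list was -0.33 and -0.39. In unwounded cells, replicates 1 to 3 of Krt14 were at 4434, 4229 and 4804 CPM in the total and 6527, 6687 and 6614 in the cortical fraction, and in wounded cells at 7037, 9791 and 10890 and 10250, 10370 and 10440. The Krt14 fractions did not overlap before wounding and did after it, a loss of -0.56 (SE 0.10, adjusted p = 0.00325 by edgeR with 11 libraries; -0.39 and 0.534 with 12). Cornified envelope and late differentiation genes, which build the outer barrier, had 2 losses of 18 with 11 libraries, Krtdap at -0.68 and Ecm1 at -0.59, and 0 with 12, where they were at -0.41 and -0.42. Of 11 antimicrobial peptides and alarmins, Defb14 was the called loss with 11 libraries and none was called with 12, with medians of -0.90 and -0.65.

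Calls in the adhesion and cytoskeleton lists were all made with 11 libraries and none with 12. With 11 libraries 2.93% of all genes tested were called, 1.06% as gains and 1.88% as losses. The share called was larger than that among actin regulators and among genes of microtubules and motors. In each of the other lists it rested on 2 genes, 1 gene or none. Of 15 desmosome genes, 1 gained: Dsc3, a desmosomal cadherin, by 0.61 (SE 0.13, adjusted p = 0.0095 by edgeR; 0.30 and 0.758 with 12 libraries). The 3 unwounded total libraries had 159, 143 and 146 CPM of Dsc3 and the unwounded cortical ones 184, 176 and 179, against 159, 99.95 and 86.1 in wounded total and 169, 173 and 168 in wounded cortical libraries. The change lay in wounded total replicates 2 and 3, which were the lowest, while replicate 1 was at the level of the unwounded totals. Of 11 genes of hemidesmosomes and plakins, Lama3, a laminin chain of the basement membrane, gained 0.48 (SE 0.13, adjusted p = 0.0485), and of 13 adherens junction genes Ctnnb1, which encodes β-catenin, gained 0.70 (SE 0.18, adjusted p = 0.029). With 12 libraries Lama3 was at 0.26 and Ctnnb1 at 0.26, with adjusted p of 0.765 and 0.864 by edgeR. None of 18 tight junction genes was called, with a median of -0.13. Of 26 genes of integrins and focal adhesions, Itga3, the integrin α3 subunit, and Tns4, a tensin, were called at -0.59 and -0.62 and had -0.44 and -0.53 with 12 libraries (adjusted p = 0.501 and 0.327 by edgeR). Ctnnb1, Rhoa and Tuba4a overlap other genes (Ulk4, Tcta and Stk16) on the opposite strand. Actin regulators gave 2 gains, Rhoa (0.53) and Wasl (0.54), and 2 losses, Actb (-0.44) and Myl6 (-0.57), of 31 tested, and 0 gains and 3 losses with median-of-ratios factors. With 12 libraries these 4 genes were at 0.42, 0.28, -0.25 and -0.39, with adjusted p from 0.417 to 0.776 by edgeR. Of 34 genes of microtubules and motors, 3 gained, Clasp2 (1.15), Tubb6 (0.51) and Tuba4a (0.49), and Dctn2 lost (-0.49). With 12 libraries they were at 1.14, 0.51, 0.56 and -0.39, with adjusted p from 0.244 to 0.454 by edgeR.

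By number, the most calls with 11 libraries were in the large lists of nuclear-encoded respiratory chain and cytosolic ribosomal protein genes, and nearly all were losses. Smaller lists had larger shares called: 5 of 13 mitochondrially encoded mRNAs, all gains, and 5 of 15 keratins, all losses. Of 80 nuclear-encoded respiratory chain genes, 20 lost and 0 gained (median -0.35), and of 83 cytosolic ribosomal protein genes 15 lost and 2 gained (median -0.33), against 1.88% losses and 1.06% gains over all genes tested. With median-of-ratios factors 24 cytosolic ribosomal protein genes lost and 2 gained. Of 77 mitochondrial ribosomal protein genes 7 lost and 0 gained (median -0.15). With all 12 libraries the nuclear-encoded respiratory chain, cytosolic ribosomal and mitochondrial ribosomal lists held no call, and their medians were -0.18, -0.17 and -0.05. Rps29, a protein of the small ribosomal subunit, was called at -1.39 (SE 0.29, adjusted p = 0.0115 by edgeR with 11 libraries; -1.22 and 0.301 with 12). Replicates 1 to 3 gave 363, 924 and 654 CPM for Rps29 in unwounded total, 759.9, 717 and 699 in unwounded cortical, 1009, 1540 and 1435 in wounded total and 699, 456 and 761 in wounded cortical libraries. Wounded total replicates 2 and 3 were the highest, and the unwounded totals were themselves spread widely. Atp5k, a subunit of ATP synthase, was at -1.35 (SE 0.30, adjusted p = 0.0158; -1.09 and 0.41 with 12), and the called gains were Rpl23a (0.59; 0.58 with 12) and Rps2 (0.47; 0.36 with 12). Rpl23a overlaps Tlcd1 on the other strand. Relative to the unwounded total mean, the median log2 level of the cytosolic ribosomal list was 0.38 and 0.37 in wounded total replicates 2 and 3 and -0.17 in replicate 1. It was 0.24 in unwounded total replicate 2, and without that library as well 682 genes were called. The medians of the keratin, respiratory chain and cytosolic ribosomal lists were negative and that of the mitochondrially encoded list positive with TMM, median-of-ratios, upper quartile and library size scaling. Ribosomal protein genes have many near-identical pseudogenes between which reads may have been divided.

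The called losses with 11 libraries had short coding sequences: a median of 601.5 bases over the 224 that had one, against 1254 for 134 gains and 1383 over 11711 tested genes. With 12 libraries the 14 losses had a median of 1863 bases. Across genes, which are not independent replicates, Spearman's rho of the interaction with coding length was 0.03 with 12 libraries and 0.13 with 11.

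**Figure D4:**
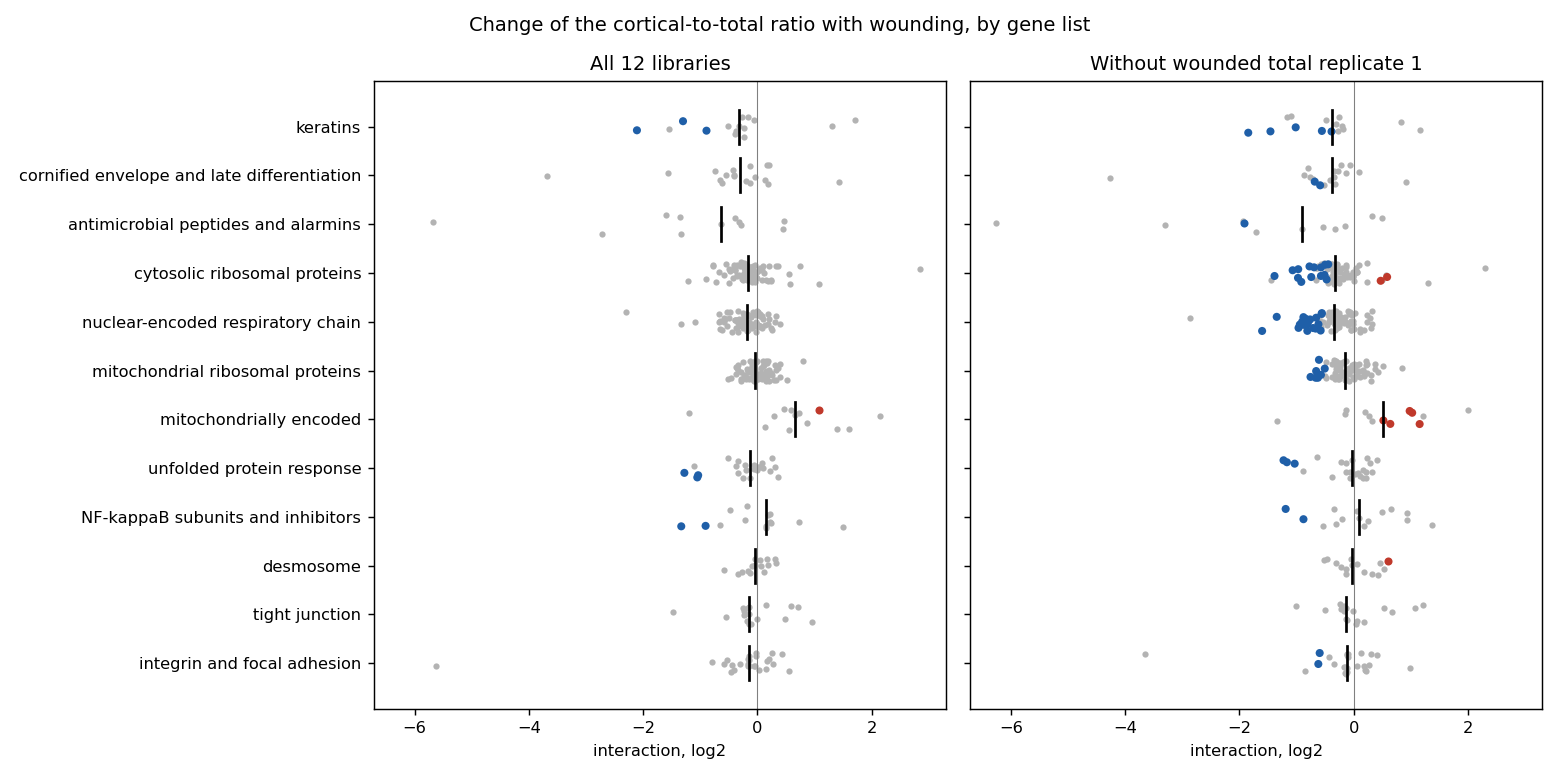
Interaction on the log2 scale of each tested protein-coding member (points) of 12 gene lists, with all 12 libraries (left) and without wounded total replicate 1 (right); called losses are blue, called gains red, and the bar is the list's median. The unfolded protein response and NF-kappaB calls stand in both panels, while those in the ribosomal and respiratory chain lists appear on the right only.

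Over all lists, 85 different protein-coding members were called with 11 libraries and not with 12, and their adjusted p with 12 ran from 0.123 to 0.913 by edgeR. Calls in the remaining lists are given beside the 2.93% of all genes tested that were called with 11 libraries, 1.06% as gains and 1.88% as losses. With 11 libraries, the hypoxia and glycolysis list had 4 losses (Ndufa4l2, Ndrg1, Pkm and Aldoa) and 1 gain (Pgam1) of 23 tested, a larger share than over all genes. Ndrg1, a stress-response gene, was at -0.92 (SE 0.16, adjusted p = 0.0022 by edgeR; -0.85 and 0.123 with 12). AP-1 and immediate early genes had 1 loss of 18, Ier3 at -0.80 (-0.59 with 12), translation factors 3 gains and 1 loss of 64, the proteasome 2 losses of 48, and zinc finger genes named Zfp 2 gains and 4 losses of 290. The ER translocon list had 2 losses of 23, Sec62 and Sec61g. No member was called in either comparison in the lists of wound matrix and proteases (21 tested), EGF receptors and ligands (10), cholesterol synthesis (24), cell cycle (28) and the NRF2 response (16), whose medians lay between -0.02 and 0.16 with 11 libraries.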

How the data were processed

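Messenger RNA was sequenced from 12 libraries of mouse keratinocytes. Per the labels' protocols, mRNA was selected with poly-T beads and made into non-directional libraries, and the submitters' processing notes name CASAVA, HISAT2 and mm10. The counting tool and annotation release are not given in the sources used here. The authors deposited raw counts per gene and FPKM values, each with 1 column per library (unused sample columns: 0). The deposited FPKM equalled the count divided by gene length and a constant per library. Groups and replicate numbers came from the titles.

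Counts were filtered with filterByExpr, scaled with TMM factors and fitted with edgeR 4.0.16 in R 4.3.3 (quasi-likelihood, a mean per group, shared spread). The interaction was tested two-sided, with Benjamini-Hochberg adjustment over all genes tested and a threshold of 0.05; "called" means past it. CPM are from counts with TMM factors. Alternatives used DESeq2 1.42.0, limma 3.58.1 (log2 of FPKM plus 1 or 0.1, and voom with quality weights), other scalings and filters, the replicate block, a loess trend on gene length (span 0.5), a fold threshold of 1 log2 unit and leaving out each library. The fit was also run on simulated counts in which each gene had the same spread in all libraries. That simulation held no library that stood apart like wounded total replicate 1, so it does not bear on the difference between the fits. Plots used matplotlib 3.10.9 under python 3.11.15.

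Genes named were all those called with 12 libraries and, with 11, the 12 largest in each direction among called protein-coding genes averaging 100 counts or more whose ratios in wounded replicates 2 and 3 lay beyond all unwounded ones (132 gains and 221 losses qualified); for this naming rule only, a ratio was taken between cortical and total libraries of the same number. Up to 3 called members per direction of each of 29 gene lists, Dsp and Acaca were added. Some genes that met the rule are not reported here. The members, the rule and the lists were chosen with earlier results of these data known. Total counts per library limit the precision: 8980013 to 23457548. Gene coordinates are those of the deposited table. Sequences and coding lengths are from GENCODE M21 (GRCm38). No protein sequences were used.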

Additional observations from a re-analysis of the deposited data

Results flagged for a closer look

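In 17 genes the difference between the fractions was not the same in unwounded and wounded cells by the test of that difference itself, the interaction with all 12 libraries. The values, wounded minus unwounded cortical-to-total log2 ratio, were -2.11 for Krt78, -1.48 for 2610528A11Rik, -1.46 for Prune2, -1.34 for Acaca, -1.33 for Nfkbia and -1.30 for Krt6b. They were -1.28 for Atf6b, -1.07 for Bag3, -1.05 for Atf4, -1.04 for Atf6, -0.91 for Ppp1r13l, -0.89 for Krt16, -0.85 for Ythdf1 and -0.81 for Pum2. The positive values were 1.07 for mt-Nd5, 1.21 for Rhno1 and 1.27 for Gm28439. Groups of 3 libraries are too small for a test of single libraries that stand apart.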

How the results depend on the processing

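Of the 17 genes called with all 12 libraries, Acaca, Atf6b, Nfkbia and Prune2 were called under every alternative run. Over all 17 genes and their alternatives, 299 of 441 values stayed past the threshold, 142 did not, and 0 changed sign. With all 12 libraries the count of 17 became 11 with library size alone, 138 without the low-count filter, 72 with DESeq2, 10 with limma on log2 FPKM plus 1 and 10 plus 0.1, 30 with the gene length trend removed and 855 with voom quality weights. Leaving out 1 library gave 4 (without wounded cortical replicate 3) to 413 (without wounded total replicate 1). Without the other libraries the count was 9 to 10 for the unwounded totals and 6 to 7 for the unwounded cortical libraries. It was 10 and 11 for wounded total replicates 2 and 3, and 9 and 5 for wounded cortical replicates 1 and 2. No gain was called when any 1 of the unwounded cortical libraries, or wounded cortical replicate 2 or 3, was left out. In those fits 4 to 7 losses were called. Without wounded total replicate 1 the count of 413 became 687 with no filter, 742 with DESeq2, 145 and 134 with limma on log2 FPKM plus 1 and 0.1, 115 at a log2 change of at least 1 and 1096 with voom quality weights. Leaving out 1 further library gave 64 (without wounded total replicate 3) to 682 (without unwounded total replicate 2). It gave 238 without unwounded total replicate 1, 227 and 236 without unwounded cortical replicates 1 and 3, and 232 without wounded cortical replicate 2. Where 1 wounded total library was left, it was assumed to vary like the other groups. Other alternatives kept the counts within 1.5 times, and the cause of these shifts was not tested. Of the 82 genes named from the 11 libraries, 18 were called under every alternative, and 0 of the called ones changed sign. Dsp, not called, went from -0.14 to 0.00782 with library size alone. Same-numbered libraries deviated together only weakly (r from -0.05 to 0.22 over 18 pairs, mean 0.01). Of the 12 libraries, 4 correlated best with their own number, and the numbers were not taken as pairs. These pairs included libraries of different conditions. Between total and cortical libraries of the same number and condition, r was -0.03 to 0.009. The replicate block joined all libraries of the same number, and pairs within a condition were not fitted. With the replicate block 10 genes were called with 12 libraries, all among the 17; Krt6b, Krt78, Pum2 and Ythdf1 (adjusted p = 0.0818 by edgeR), Gm28439 (0.0885), Krt16 (0.0974) and Rhno1 (0.121) were not. The block gave 319 with 11 libraries (302 shared), and with the length trend removed as well 30 with 12. Over all genes the median standard error was 0.31 and the median absolute value 0.28. Krt78, with the lowest mean count of the 17 genes, had the highest standard error of them, 0.38.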

Other observations

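Splicing factors and hnRNPs, the nuclear proteins that choose splice sites and package new transcripts, were collected as a list after the values had been seen, because several stood among the gains. Of 75 tested, 13 gained and 0 lost without wounded total replicate 1 (median 0.19), where 1.06% of all genes tested gained and 1.88% lost, and none was called with all 12 libraries (median 0.13, 58 of 75 positive). The called genes were Clk1, Hnrnpa0, Hnrnpab, Hnrnpl, Prpf38a, Ptbp1, Sf3b3, Sf3b4, Srsf2, Srsf5, Srsf6, Tra2a and Tra2b. The count was 12 gains and 1 loss with median-of-ratios factors and 18 gains with library size alone. Because gains seen in these same values prompted the list, its counts are no separate support for a gain of the group. Srsf6, a serine- and arginine-rich splicing factor, was at 76.7, 76.2 and 80.6 CPM in unwounded total and 59.9, 58.4 and 57.9 in unwounded cortical libraries. After wounding it was at 41.9, 41.6 and 32.3 in total and 51.1, 44.1 and 47.9 in cortical libraries. Total was above cortical in every unwounded library and below it in every wounded one, and here wounded total replicate 1 lay with the other wounded totals. The gain of Srsf6 was 0.77 (SE 0.16, adjusted p = 0.00950 by edgeR) with 11 libraries and 0.71 (SE 0.16, adjusted p = 0.183) with 12. The list's median relative to the unwounded totals was -0.21, -0.22 and -0.24 in wounded total replicates 1 to 3.

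Among the 413 genes called without wounded total replicate 1, 358 were protein coding. Processed pseudogenes made up 10 of the 149 gains and 21 of the 264 losses, and long intergenic noncoding RNA genes 6 of the losses.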
